A study of Mus musculus with 62 samples.

Results

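The nuclear genes for the subunits of respiratory complexes II, III, IV and V were followed over 8 weeks after injection of melanoma cells in soleus muscle of mice. Members were the genes whose symbol begins with Uqcr, with Cox4 to Cox8 or with Atp5, together with Sdha, Sdhb, Sdhc, Sdhd and Cyc1, leaving out the 4 pseudogene symbols that contain -ps, which were listed at 0 TPM in every library. The rule uses names and no measured value, and it gave 48 of the 47643 genes in the table, of which 4 belong to complex II, 9 to complex III, 18 to complex IV and 17 to complex V. Expression was given as TPM (transcript abundance, a level corrected for transcript length that adds up to the same total in each library). The 62 libraries fell into 12 groups. CAC mice had received melanoma cells described as cachectic, cachexia being the wasting of muscle and fat in cancer, NCAC mice had received melanoma cells described as non-cachectic, and Con mice had a mock injection, each sampled at 2, 4, 6 and 8 weeks after the injection. Every group held 5 libraries except CAC at 8 weeks, which held 7. All were listed as females of 2 months. The same age is given for every week, so whether it is that at injection or at sampling is not settled here. The sample entries give the strain as C57BL6/J and the design text as NCI Ath/nude, an athymic mutant, so the strain, and with it whether all groups lacked a thymus, is not settled here. The extraction text speaks of LLC cells, a lung carcinoma line, and not of melanoma, so the identity of the cells that CAC and NCAC mice received rests on the design text and the sample entries.

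These proteins carry electrons to oxygen and make ATP on the inner mitochondrial membrane. Complex II takes electrons from succinate, complex III passes them from ubiquinol to cytochrome c, complex IV hands them to oxygen, and complex V, the ATP synthase, uses the proton gradient that complexes III and IV help to build. Complex II is coded by nuclear genes alone, while complexes III, IV and V each also hold subunits coded by the mitochondrial genome, and complex IV has subunits with a muscle form and a form found in most tissues. The soleus is a slow postural muscle rich in mitochondria. A few members are not plain subunits: Cox7a2l helps to join complexes III and IV, and Atp5s (factor B) and Atp5sl (also named Dmac2) are not ATP synthase subunits.

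As a check of the labelled tissue, all 10 slow-fibre markers were detected in every group, with summed levels between 16270 and 57250 TPM. The 10 fast-fibre markers summed to 6314 to 32045 TPM and exceeded the slow ones in 2 libraries, CAC replicate 6 (32045 TPM fast and 16270 TPM slow) and CAC replicate 7 (21610.0 and 18769 TPM) of week 8. TPM values keep no record of sequencing depth, so the depth of a library is unknown. In bulk muscle, fewer fibres and less RNA per fibre cannot be told apart. Replicates are separate samples in the labels. Several libraries stood apart. CAC replicates 1 and 4 of week 6 had 28.0% and 27.8% of their TPM from the mitochondrial genome, against 33.7% to 40.0% in the other CAC libraries of that week and 38.1% to 40.9% in Con libraries, and they had 8651 and 9048 TPM of the slow myosin Myh7, where the remaining CAC libraries of that week had 3933 to 5052 TPM. In 3 libraries (CAC replicate 4 of week 2, NCAC replicate 3 of week 6 and CAC replicate 6 of week 8) the fast myosin Myh4 reached 1013, 687 and 2040 TPM. Of the 48 members, 46 passed the filter on low values and were tested. The other 2 were Cox8c, the testis form of subunit 8, at 0 TPM throughout, and Cox7b2, which reached at most 0.27 TPM.

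Levels differed widely among the members. In Con mice at 2 weeks the highest members were Cox6a2, the muscle form of subunit 6a, with 3412 ± 330.2 TPM, Cox8b, the muscle form of subunit 8, with 2365 ± 238 TPM, and Atp5l, subunit g of the ATP synthase, with 2310.4 ± 195 TPM (mean ± SD, n = 5 each). The alpha and beta subunits of the catalytic head of the ATP synthase, Atp5a1 and Atp5b, followed with 1838 ± 75.4 and 1733 ± 90.0 TPM. The spread of these neighbours overlapped for Cox8b and Atp5l and for Atp5a1 and Atp5b. At the low end stood Cox4i2, a form of subunit 4 known from lung and low oxygen, with 7.89 ± 1.03 TPM, and Cox6b2, the testis form of subunit 6b, with 1.68 ± 0.39 TPM. Summed over a complex, Con mice at 2 weeks had 1850.2 ± 68.5 TPM for complex II, 6199.6 ± 356 TPM for complex III, 13676 ± 964 TPM for complex IV and 12032 ± 729 TPM for complex V.

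**Figure D1:**
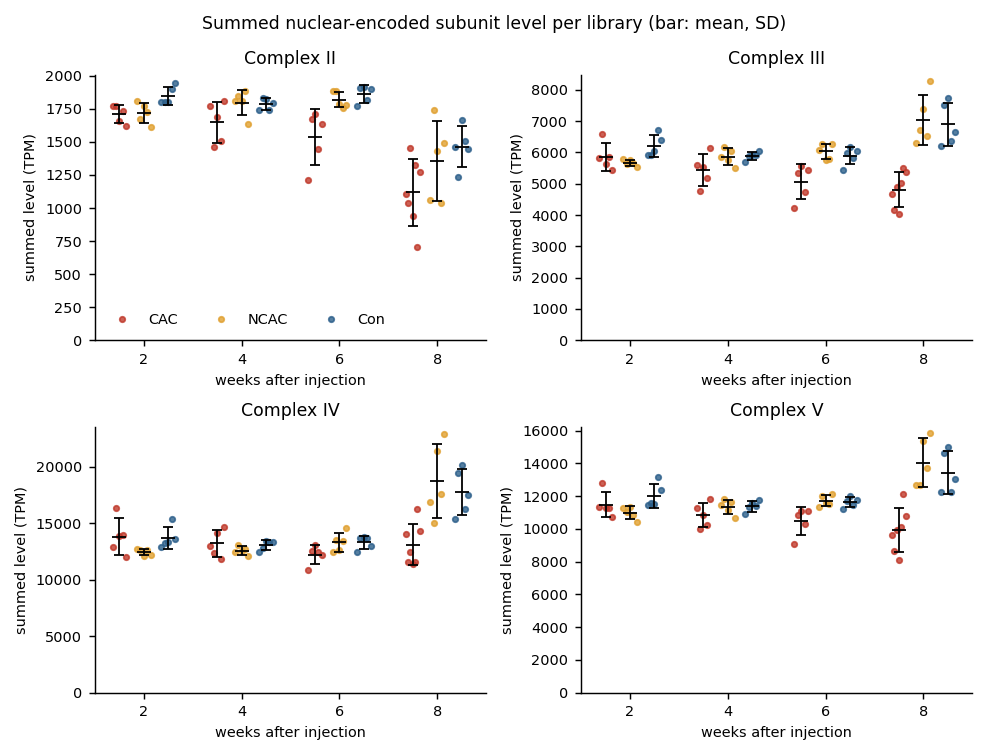
Summed TPM of the nuclear-encoded members of complexes II, III, IV and V (y axis) at 2, 4, 6 and 8 weeks (x axis) in CAC (red), NCAC (yellow) and Con (blue) mice; each point is a library and bars are the mean and SD. At 8 weeks complex III held 4036 to 5498 TPM in CAC libraries, below the 6194 to 7742 TPM of Con libraries.

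No member passed the test at 2 weeks. In CAC against Con mice 0 of 46 members passed the limma test at an adjusted p of 0.05 (background 0% of all genes), with 6 members and 1315 of 13529 genes at an unadjusted p under 0.05, and the members' median log2 fold change was -0.06 beside 0.06 over all genes. CAC against NCAC also gave 0 members (background 0.503%) with 4 members at an unadjusted p under 0.05, and NCAC against Con gave 0 (background 0.00739%) with 9. At 4 weeks CAC against Con again gave 0 members (background 1.03%), with 11 at an unadjusted p under 0.05 and a median of -0.09, beside 0.06 over all genes. The smallest adjusted p there was that of Uqcrc2, a core protein of complex III, at 0.107 with a log2 fold change of -0.20, and 3 members passed without CAC replicate 5. Against NCAC at 4 weeks 1 member was higher and 1 lower (background 5.11% higher and 0.732% lower), both of them genes for the c subunit that forms the rotor ring of the ATP synthase. The log2 fold change of Atp5g2 was 0.19 ± 0.05 (SE; adjusted p was 0.0481) and that of Atp5g1 -0.31 ± 0.08 (adjusted p = 0.0458). Each was lost when most of the single libraries were left out, Atp5g2 in 8 of 10 cases and Atp5g1 in 7 of 10. NCAC against Con gave 0 members at 4 weeks (background 0.00739%) with 0 at an unadjusted p under 0.05, 0 at 6 weeks (background 0%) with 1, and 0 at 8 weeks (background 0%) with 0.

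At 6 weeks subunits of all 4 complexes were lower in CAC than in Con muscle. Of 46 tested members 18 fell and 0 rose, while 3.87% of all tested genes fell and 23.5% rose, and the members' median log2 fold change was -0.21 beside 0.16 over all genes. The summed TPM differed from Con by -17.6% for complex II, -14.1% for complex III, -8.17% for complex IV and -9.86% for complex V. Without the mitochondrial genome these values were -25.1%, -22.0%, -16.9% and -18.3%, and by the median of ratios -27.0%, -23.9%, -19.1% and -20.4%. By complex, 3 of 4 genes fell in complex II, 4 of 9 in complex III, 7 of 16 in complex IV and 4 of 17 in complex V. The median gene moved by 0.16, so relative to it the members lay lower still. After rescaling by the median of ratios 28 members fell, and 29 when TPM was computed without the mitochondrial genome. More of all genes fell under these settings too, 1538 of 13529 and 1108 of 13516, beside 524 of 13529 in the main fit. The count rested in part on the libraries CAC replicates 1 and 4. With CAC replicate 1 left out 8 members fell, with CAC replicate 4 left out 9, and with both left out 4, namely Sdhc, Uqcrfs1, Cox4i2 and Atp5j. Of all 13529 genes 194 fell with both left out. Without Con replicate 2, 3, 4 or 5 there were 10, 8, 10 and 11. With all 62 libraries in 1 fit there were 10, beside 328 of 13529 genes. For fits with 1 library left out the count over all genes is not given here. The 8 members that fell in each of the 10 leave-one-out fits were Sdhc, Uqcrfs1, Cox4i2, Cox5a, Cox7a1, Atp5g3, Atp5j and Atp5k. All CAC libraries lay below all Con libraries for 7 members (background 2.31% of all tested genes) and above them for 0 (background 13.3%).

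In complex II, Sdhc, a membrane anchor that binds ubiquinone, showed the clearest difference. Sdhc had 181, 257, 231, 210.0 and 234 TPM in CAC libraries, against 289, 285, 298, 299 and 284 TPM in Con libraries. All 5 CAC libraries lay below all 5 Con libraries, and the log2 fold change was -0.39 ± 0.08 (± SE; adjusted p = 0.00343). The other anchor, Sdhd, had 330.3, 387, 527, 362 and 468 TPM in CAC libraries, against 468, 510.1, 519, 506 and 545 TPM in Con libraries. CAC replicates 3 and 5 lay within the Con range, the other 3 lay below it, and Sdhd fell with a log2 fold change of -0.32 ± 0.10 (adjusted p = 0.036). Sdha, the flavoprotein that oxidises succinate, had 350.3, 476, 433, 397 and 424 TPM in CAC libraries, against 473, 507, 504, 474 and 503 TPM in Con libraries. Only CAC replicate 2 reached the Con range, and Sdha fell with a log2 fold change of -0.25 ± 0.09 (adjusted p = 0.047). Sdhb, the iron-sulphur subunit, had 347, 555, 523, 479.8 and 511 TPM in CAC libraries, against 539.9, 609, 597, 540.3 and 571 TPM in Con libraries. Its log2 fold change of -0.26 ± 0.11 was of the same size as that of Sdha but did not pass (adjusted p = 0.0798). Without CAC replicate 1 the adjusted p was 0.132 for Sdha and 0.105 for Sdhd, and both were lost in 7 of 10 leave-one-out fits.

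In complex III the Rieske iron-sulphur protein Uqcrfs1, which takes the first electron from ubiquinol, had the largest fall. Uqcrfs1 had 407, 522, 557, 454 and 563 TPM in CAC libraries, against 607, 652, 701, 615 and 657 TPM in Con libraries. The groups did not overlap, and the log2 fold change was -0.38 ± 0.09 (adjusted p = 0.00621). The core protein Uqcrc2 had 381, 502, 502, 447 and 495 TPM in CAC libraries, against 567, 551, 576, 539.7 and 551 TPM in Con libraries, again with no overlap, and fell by a log2 fold change of -0.27 ± 0.08 (adjusted p = 0.0229; 0.0564 without CAC replicate 1). The small subunit Uqcr11 had 520.1, 689, 694, 606 and 677 TPM in CAC libraries, against 665, 812, 772, 769.7 and 797 TPM in Con libraries. Its groups overlapped through Con replicate 1, which lay below 3 of the CAC libraries, and the log2 fold change was -0.26 ± 0.09 (adjusted p = 0.0396; 0.11 without CAC replicate 1). Uqcrc1, the partner core protein, also fell (-0.27, adjusted p = 0.04; 0.105 without CAC replicate 1). Cyc1, the cytochrome c1 that passes electrons on to cytochrome c, had -0.25 and did not pass (adjusted p = 0.0713).

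In complex IV the largest fall of any member was that of Cox7a1, the form of subunit 7a found in heart and skeletal muscle. Cox7a1 had 228, 521, 527, 295 and 602 TPM in CAC libraries, 889.8, 802, 658, 735 and 931 TPM in NCAC libraries and 578, 796, 764, 682 and 794 TPM in Con libraries. CAC replicates 1 and 4 were far below every other library, and of the CAC libraries only replicate 5 reached the Con range. The log2 fold change against Con was -0.82 ± 0.22 (adjusted p = 0.0129) and was -0.39 without these libraries (adjusted p = 0.0802). Cox4i2 had 6.43, 5.21, 5.31, 5.85 and 5.69 TPM in CAC libraries, against 6.15, 8.65, 9.02, 8.28 and 10.3 TPM in Con libraries. CAC replicate 1 lay above the lowest Con library and the other 4 below it, and the log2 fold change was -0.49 ± 0.11 (adjusted p = 0.00504), or -0.55 without CAC replicates 1 and 4. Cox5a, which binds near the matrix face of the complex, had 1011, 1091, 1180.3, 1154 and 1311 TPM in CAC libraries, against 1284, 1509, 1521, 1422 and 1373 TPM in Con libraries. One CAC library, replicate 5, reached the Con range, and Cox5a fell by a log2 fold change of -0.31 ± 0.08 (adjusted p = 0.0115), or -0.25 without CAC replicates 1 and 4 (adjusted p = 0.0735). Cox7c (-0.32), Cox5b (-0.32), Cox7b (-0.27) and Cox6c (-0.25) also fell, with adjusted p values of 0.0191, 0.0436, 0.0332 and 0.0463; without CAC replicate 1 these were 0.0567, 0.119, 0.078 and 0.131. The abundant Cox6a2 had a value above 0, 0.14, and did not pass (adjusted p = 0.269).

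In complex V the 4 falls were those of Atp5j, Atp5g3, Atp5k and Atp5e. Atp5j, the coupling factor 6 of the stalk, had 154, 211, 199, 173 and 211 TPM in CAC libraries, against 231, 257, 264, 238 and 251 TPM in Con libraries. The groups did not overlap, and the log2 fold change was -0.40 ± 0.09 (adjusted p = 0.005). Atp5g3, a gene for the c subunit, had 355, 462, 569.5, 425 and 555 TPM in CAC libraries, against 567, 623, 651, 599 and 629 TPM in Con libraries. CAC replicate 3 alone reached the Con range, and Atp5g3 fell by a log2 fold change of -0.39 ± 0.11 (adjusted p = 0.0148), or -0.22 without CAC replicates 1 and 4 (adjusted p = 0.113). Atp5k, subunit e of the membrane part, had 560.4, 738, 650.3, 617 and 699 TPM in CAC libraries, against 751, 780.3, 856, 822 and 839 TPM in Con libraries. All CAC libraries lay below all Con libraries, and the log2 fold change was -0.31 ± 0.09 (adjusted p = 0.0167), or -0.22 without CAC replicates 1 and 4 (adjusted p = 0.143). Atp5e, subunit epsilon, also fell (-0.22, adjusted p = 0.0427; 0.109 without CAC replicate 1). Atp5a1, Atp5b and Atp5c1 of the catalytic head did not pass, with -0.13, -0.14 and -0.09. The other 2 c-subunit genes had -0.21 (Atp5g1) and 0.14 (Atp5g2) and did not pass. Tests of the difference between c-subunit genes were not made.

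**Figure D2:**
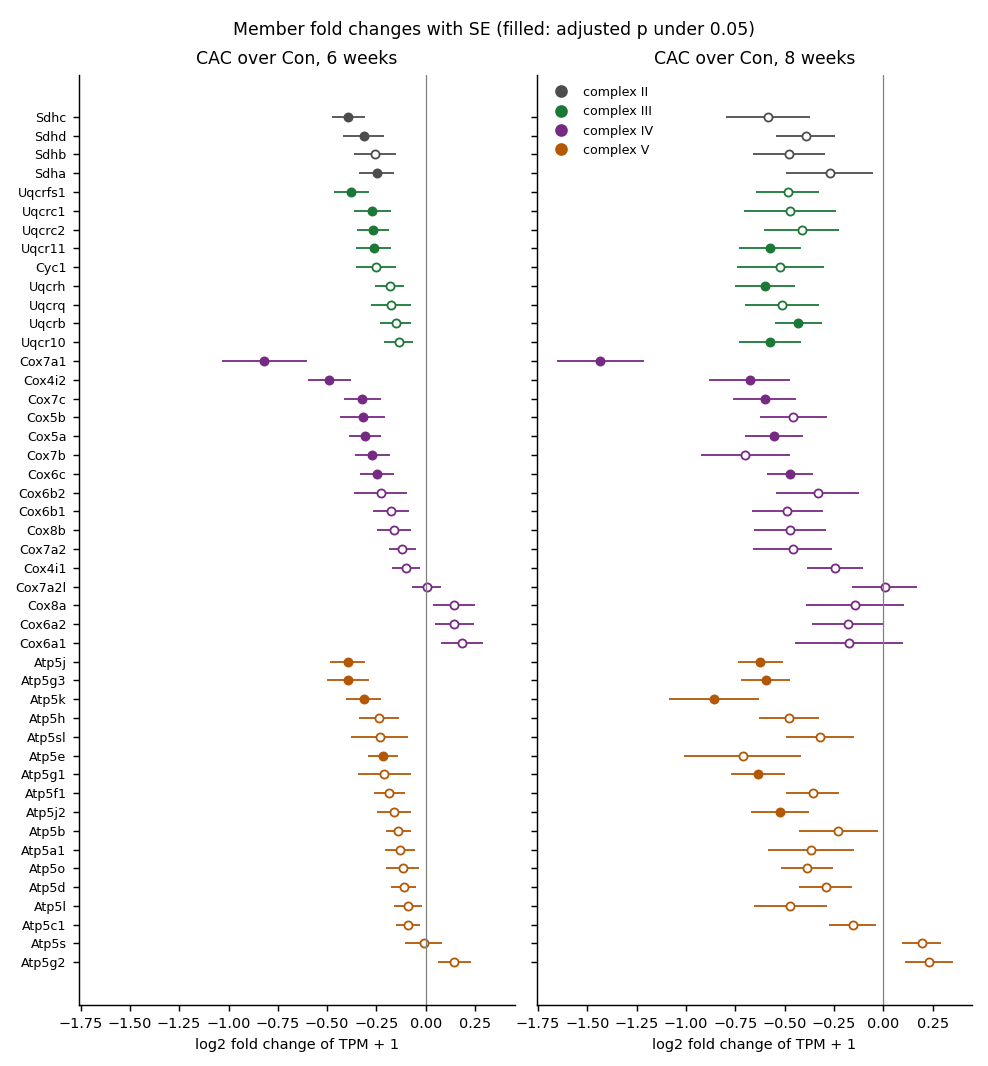
Log2 fold change of TPM + 1 with its standard error (x axis) for the 46 tested members (y axis, by complex from II at the top to V at the bottom), CAC over Con at 6 weeks (left) and 8 weeks (right); filled points passed an adjusted p of 0.05. Cox7a1 lies furthest to the left in both panels, at -0.82 and -1.44, and no filled point lies to the right of 0.

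Against NCAC mice at 6 weeks 19 members were lower in CAC and 0 higher (background 4.86% lower and 27.8% higher). The 2 comparisons share the CAC libraries; 14 members fell in both, which is 77.8% of the falls against Con and 73.7% of those against NCAC. Cox7a1 had -0.97 ± 0.22 (adjusted p = 0.00393), Atp5e -0.39 ± 0.08 (adjusted p = 0.00147) and Uqcrfs1 -0.42 ± 0.09 (adjusted p = 0.00224) against NCAC. In complex III, 7 of 9 members fell against NCAC, and in complex II Sdhc alone passed. Without CAC replicates 1 and 4 there were 8 falls against NCAC, among them Cox7a1 at -0.54 (adjusted p = 0.014), beside 324 of 13529 genes. Genes of other cell types differed in the same week. Of 10 adipocyte markers 8 were higher in CAC than in Con muscle and 0 lower, and their summed level was 2567 to 4081 TPM in CAC libraries, against 1642 to 1836 TPM in Con libraries. Of 10 macrophage markers 6 were higher and 0 lower, with 207 to 264 TPM in CAC libraries, against 120 to 148 TPM in Con libraries, and no marker of either list was at 0 throughout a group. Slow-fibre markers overlapped, with 1 of 10 higher and 0 lower. The part of these genes in the falls of the members was not tested.

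At 8 weeks fewer members passed, although the median difference was further from 0; the change of the CAC difference between 6 and 8 weeks passed the test for 0 members. In CAC against Con muscle 14 of 46 members fell and 0 rose, beside 4.26% of all genes lower and 6.31% higher, and the members' median log2 fold change was -0.47 beside 0.00 over all genes. Of the 14, 0 were in complex II, 4 in complex III, 5 in complex IV and 5 in complex V. The complex II genes had values of -0.59 (Sdhc), -0.48 (Sdhb), -0.39 (Sdhd) and -0.27 (Sdha), with adjusted p values of 0.0844, 0.097, 0.0999 and 0.464. Summed TPM was 4807 ± 564 in CAC libraries and 6895 ± 691 in Con libraries for complex III, 13097 ± 1834 and 17762 ± 2065 for complex IV, and 9920.0 ± 1336 and 13433 ± 1299 for complex V (mean ± SD, n = 7 CAC and 5 Con libraries). The number of falls depended on single libraries: it was 4 without Con replicate 3, 5 without Con replicate 2, 7 without Con replicate 5, 6 and 9 with CAC replicate 2 or 4 left out, and 20 with CAC replicate 6 left out. The counts over all genes in these fits are not given here. With all 62 libraries in 1 fit 35 fell and 2 rose, beside 2021 lower and 2185 higher of all 13529 genes. In an earlier test on simulated data a fit of all 12 groups gave many false calls at week 8, whose libraries vary more. With a trend on transcript length removed 9 fell, beside 937 of 13060 genes. The 4 members that passed in all 12 leave-one-out fits were Cox7a1, Atp5j, Atp5g3 and Atp5g1.

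Cox7a1 again fell the most. It had a lowest value of 243, a median of 451 and a highest value of 606 TPM in CAC libraries, 870.0, 1045, 1146, 1136 and 1653 TPM in NCAC libraries and 920.4, 1137, 1544, 1080.3 and 1044 TPM in Con libraries. No CAC library reached the lowest NCAC or Con library, and the log2 fold change against Con was -1.44 ± 0.22 (adjusted p = 0.00156), from -1.53 to -1.31 as single libraries were left out. Atp5j had a lowest value of 136, a median of 159 and a highest value of 193 TPM in CAC libraries, against 241, 257, 286, 245 and 233 TPM in Con libraries. All CAC libraries were below all Con libraries, with a log2 fold change of -0.62 ± 0.11 (adjusted p = 0.00393). Atp5g3 had a lowest value of 306, a median of 344 and a highest value of 438 TPM in CAC libraries, against 558, 526, 581, 559.8 and 527 TPM in Con libraries. It too showed no overlap, with a log2 fold change of -0.60 ± 0.12 (adjusted p = 0.00686; 0.0695 with the length trend removed). Atp5g1, also a c-subunit gene, ranged over 92.6 to 136 TPM in CAC libraries and 147 to 187 TPM in Con libraries and fell by a log2 fold change of -0.63 ± 0.14 (adjusted p = 0.00919).

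The other falls at 8 weeks were lost without at least 1 library. Atp5k had a lowest value of 594, a median of 766 and a highest value of 1502 TPM in CAC libraries, against 1199, 1998, 1891, 1153 and 1604 TPM in Con libraries. CAC replicate 6 was the only CAC library within the Con range, and Atp5k fell by a log2 fold change of -0.86 ± 0.23 (adjusted p = 0.0252; 0.0722 without Con replicate 2). Cox5a had a lowest value of 777, a median of 1003 and a highest value of 1049 TPM in CAC libraries, against 1423, 1309, 1505, 1393 and 1254 TPM in Con libraries. The groups did not overlap, and its log2 fold change was -0.55 ± 0.15 (adjusted p = 0.0248; 0.0663 without Con replicate 3). Uqcr11 had a lowest value of 569.8, a median of 735 and a highest value of 979 TPM in CAC libraries, against 894, 1330.2, 1307, 969 and 1072 TPM in Con libraries. CAC replicate 6 reached into the Con range, and the log2 fold change was -0.58 ± 0.16 (adjusted p = 0.0271; 0.079 without Con replicate 3). Cox4i2 had a lowest value of 2.78, a median of 3.50 and a highest value of 6.72 TPM in CAC libraries, against 6.99, 7.53, 6.86, 5.96 and 6.71 TPM in Con libraries. CAC replicate 3 lay within the Con range, and its log2 fold change of -0.68 ± 0.20 (adjusted p = 0.0432) was lost in 11 of 12 leave-one-out fits. The small subunits Uqcrh (-0.60), Uqcr10 (-0.58), Uqcrb (-0.43), Cox7c (-0.60), Cox6c (-0.47) and Atp5j2 (-0.52) made up the rest, with adjusted p values between 0.0186 and 0.0327. Their largest adjusted p with 1 library left out was 0.0581 for Uqcrh, 0.0787 for Uqcr10, 0.0791 for Uqcrb, 0.0562 for Cox6c and 0.0913 for Atp5j2, each without Con replicate 2, and 0.0677 for Cox7c without Con replicate 3. With the length trend removed Cox5a, Cox4i2, Uqcrb, Cox6c and Uqcr11 lost their calls (limma, adjusted p = 0.144, 0.124, 0.145, 0.0577 and 0.0525). Atp5k, Uqcrh, Uqcr10, Cox7c and Atp5j2 kept theirs.

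The Rieske protein and the core proteins, which fell at 6 weeks, did not pass at 8 weeks. Uqcrfs1 had a lowest value of 299.5, a median of 352 and a highest value of 453 TPM in CAC libraries, against 561, 442, 629.5, 534 and 472 TPM in Con libraries, with a log2 fold change of -0.49 ± 0.16 (adjusted p = 0.0588). Uqcrc2 had a lowest value of 211, a median of 289 and a highest value of 409 TPM in CAC libraries, against 456, 307, 455, 422 and 378 TPM in Con libraries, with -0.41 ± 0.19 (adjusted p = 0.171). Both values were further from 0 than at 6 weeks, with larger standard errors. In complex II, Sdhc had a lowest value of 74.7, a median of 136 and a highest value of 213 TPM in CAC libraries, against 214, 169, 242, 219.9 and 206 TPM in Con libraries. Sdha had a lowest value of 139, a median of 291 and a highest value of 365 TPM in CAC libraries, against 357, 246, 401, 347 and 317 TPM in Con libraries. In both genes the ranges overlapped, and CAC replicate 6 was the lowest library. Sdhb had a lowest value of 241, a median of 375 and a highest value of 439 TPM in CAC libraries, against 466, 417, 561, 492 and 478 TPM in Con libraries. Sdhd had a lowest value of 253, a median of 308 and a highest value of 438 TPM in CAC libraries, against 423, 405, 465, 449 and 443 TPM in Con libraries. For Sdhb and Sdhd the upper CAC libraries lay within the Con range.

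In both weeks 9 members fell against Con, namely Cox7a1, Cox4i2, Cox5a, Cox6c, Cox7c, Uqcr11, Atp5g3, Atp5j and Atp5k, which is 50% of the 6-week falls and 64.3% of the 8-week falls. Whether the CAC difference itself changed was tested directly. Between 8 and 6 weeks 0 members passed (background 0%), with 5 at an unadjusted p under 0.05 and a median difference of -0.24 beside -0.15 over all genes. Between 6 and 2 weeks Sdhc alone passed, with a difference of -0.34 ± 0.10 (adjusted p = 0.0491; background 0.724% lower and 2.63% higher), and 10 members had an unadjusted p under 0.05. The Sdhc call was lost in 16 of 20 leave-one-out fits, with an adjusted p of 0.104 without CAC replicate 1 of week 6. Against NCAC at 8 weeks 22 members were lower in CAC and 0 higher (background 2.68% lower and 19.3% higher). The falls against NCAC included Cox7a1 at -1.46 ± 0.22 (adjusted p = 0.000743), Atp5e at -1.01 ± 0.29 (adjusted p = 0.0223) and Cox7b at -0.99 ± 0.22 (adjusted p = 0.00648), and again 0 of the complex II genes. Of the 14 falls against Con, 13 were also found against NCAC, where Cox4i2 did not pass (-0.53, adjusted p = 0.0705). Leaving out 1 library gave 15 to 23 falls. Marker genes of adipocytes and macrophages gave 0 calls of 10 each in CAC against Con at 8 weeks, with summed adipocyte levels of 4136 to 21842 TPM in CAC libraries and 3045 to 17345 TPM in Con libraries. Slow-fibre markers had 2 of 10 lower and 0 higher, with summed levels of 16270 to 39498 TPM in CAC libraries and 29468 to 35318 TPM in Con libraries, and fast-fibre markers had 1 of 10 higher and 0 lower. Their part in the falls of the members was not tested.

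Subunits with a tissue form and a ubiquitous form allowed a comparison within each library, in which the total of the library nearly cancels. The muscle form Cox7a1 and the ubiquitous form Cox7a2 were at similar levels. Cox7a2 had 476, 498, 497, 520.3 and 511 TPM in CAC libraries, against 544, 489, 601, 531 and 557 TPM in Con libraries at 6 weeks. At 8 weeks Cox7a2 had a lowest value of 638, a median of 684 and a highest value of 1320.2 TPM in CAC libraries, against 844, 1419.7, 1112, 902 and 1043 TPM in Con libraries. CAC replicate 6 alone lay within the Con range at 8 weeks and the other 6 lay below it, but Cox7a2 did not pass in either week (-0.12, adjusted p = 0.183, and -0.46, adjusted p = 0.148). Ratios were taken of TPM + 1 and averaged as geometric means. The ratio of Cox7a1 to Cox7a2 was 0.55 in CAC and 1.08 in Con muscle at 8 weeks, a log2 difference of -0.98 (exact two-sided permutation test, p = 0.00379, adjusted p = 0.0397 over the 20 ratio tests). The 20 tests include those of Con mice at 8 against 6 weeks, whose calls share this adjusted p and entered its adjustment. At 6 weeks the ratio was 0.81 in CAC and 1.32 in Con muscle, a log2 difference of -0.70 (exact permutation p = 0.0159, adjusted p = 0.0529). It was 1.33 and 1.46 at 2 weeks (exact permutation p = 0.0476, adjusted p = 0.119) and 1.21 and 1.44 at 4 weeks (exact permutation p = 0.127, adjusted p = 0.231), CAC before Con. With 5 libraries a group the smallest p these tests can give is 0.00794.

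The other pairs did not differ between CAC and Con past the adjusted threshold. Cox6a2 exceeded Cox6a1, its ubiquitous counterpart, by 44.7 times in CAC and 45.9 times in Con muscle at 6 weeks, and by 13.4 and 13.5 times at 8 weeks (exact permutation p = 0.698 and 0.982, adjusted p = 0.931 and 1). At 6 weeks Cox6a2 had 3584, 3396, 4133, 3983 and 3166 TPM in CAC libraries, against 3261, 3407, 2970.0, 3824 and 3042 TPM in Con libraries. Cox6a1 had 81.0, 65.7, 97.8, 89.7 and 71.6 TPM in CAC libraries, against 62.5, 65.6, 75.1, 75.3 and 76.0 TPM in Con libraries. The groups overlapped for both forms. At 8 weeks Cox6a2 had a lowest value of 2313, a median of 2523 and a highest value of 3300.4 TPM in CAC libraries, against 3171, 2786, 3413, 3006 and 2984 TPM in Con libraries. Cox6a1 had a lowest value of 122, a median of 213 and a highest value of 286 TPM in CAC libraries, against 146, 326, 260.2, 185 and 259 TPM in Con libraries. Again both overlapped. For the muscle form Cox8b over the ubiquitous Cox8a the ratio was 11.2 in CAC and 13.9 in Con muscle at 6 weeks (exact permutation p = 0.0238, adjusted p = 0.068) and 6.88 and 8.63 at 8 weeks (exact permutation p = 0.246, adjusted p = 0.379). Cox8b had 1851, 2352, 2279, 2201 and 2078 TPM in CAC libraries, against 2247, 2427, 2657, 2316 and 2375 TPM in Con libraries at 6 weeks. Cox8a had 212, 175, 188, 218 and 162 TPM in CAC libraries, against 156, 173, 177, 177 and 179 TPM in Con libraries. For Cox8a, CAC replicates 1, 3 and 4 lay above all Con libraries, and for Cox8b, CAC replicates 1, 4 and 5 lay below them. At 8 weeks Cox8b had a lowest value of 2191, a median of 2546 and a highest value of 3500.4 TPM in CAC libraries, against 2987, 3948, 4509, 3381 and 3900.1 TPM in Con libraries. Cox8a had a lowest value of 255, a median of 411 and a highest value of 527 TPM in CAC libraries, against 273, 625, 471, 375 and 481 TPM in Con libraries. The ranges overlapped for both. Cox4i1, the ubiquitous form of subunit 4, had 714, 886, 776, 822 and 812 TPM in CAC libraries, against 804, 903, 881, 863 and 841 TPM in Con libraries at 6 weeks. At 8 weeks it had a lowest value of 709, a median of 925 and a highest value of 1107 TPM in CAC libraries, against 977, 1204, 1252, 982 and 1025 TPM in Con libraries. The ratio of Cox4i2 to Cox4i1 was 0.00834 in CAC and 0.0109 in Con muscle at 6 weeks, a log2 difference of -0.39 (exact permutation p = 0.0159, adjusted p = 0.0529).

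**Figure D3:**
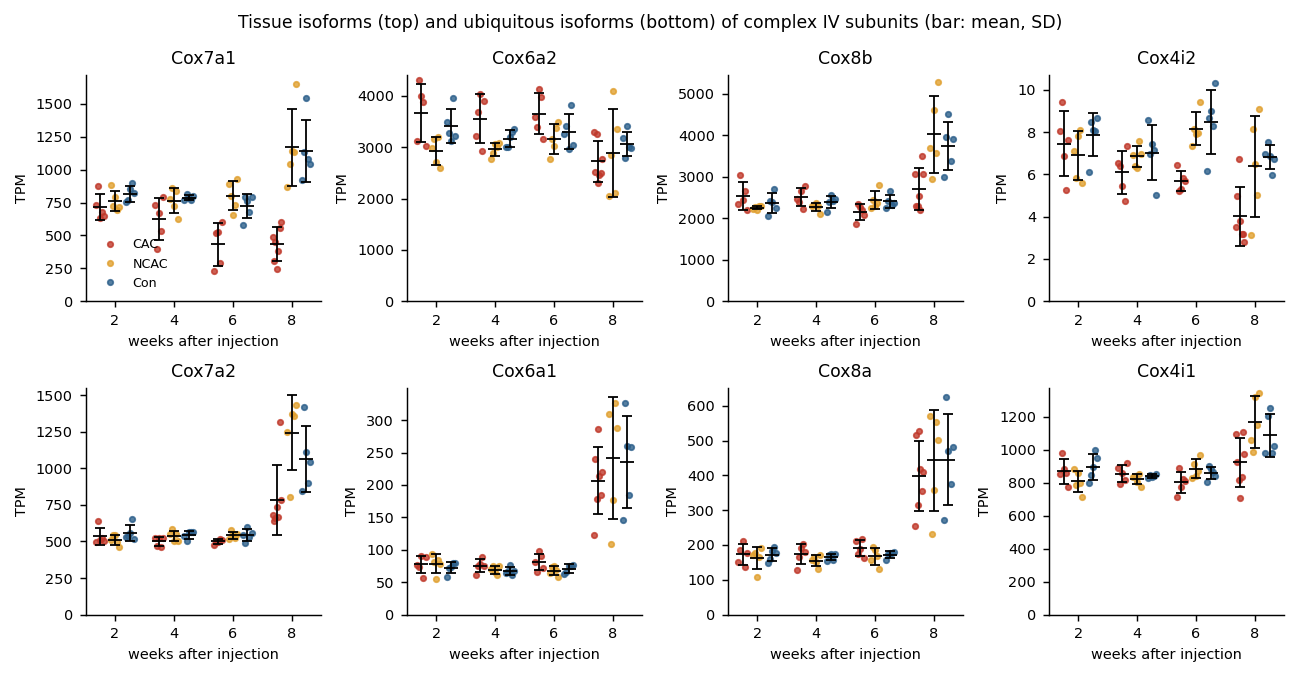
TPM (y axes, each from 0) of the tissue forms (top row) and the ubiquitous forms (bottom row) of complex IV subunits 7a, 6a, 8 and 4 at 2, 4, 6 and 8 weeks (x axis) in CAC (red), NCAC (yellow) and Con (blue) mice; points are libraries and bars the mean and SD. Cox7a1 is lower in CAC muscle at 8 weeks, with 243 to 606 TPM against 920.4 to 1544 TPM in Con libraries, while Cox6a1 and Cox8a are higher at 8 than at 6 weeks in all 3 treatments.

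The 2 forms of subunit 7a and 2 of the small subunits that fell in both weeks, Uqcr11 and Atp5k, are shown with the sequence around their start, the forms because their ratio differed at 8 weeks, and the others as examples from complexes III and V. The sequences run from 250 bases before to 50 bases after the gene's start, 5′ to 3′ on the coding strand, from RefSeq on GRCm38.p6, and 34 of the 48 members had an entry. They lie at chr7:30183921-30184220 on the plus strand (Cox7a1), chr9:79759804-79760103 on the minus strand (Cox7a2), chr10:80406772-80407071 on the minus strand (Uqcr11) and chr5:108434350-108434649 on the minus strand (Atp5k). Capitals mark a match to 1 of 6 motifs searched on both strands.
Cox7a1: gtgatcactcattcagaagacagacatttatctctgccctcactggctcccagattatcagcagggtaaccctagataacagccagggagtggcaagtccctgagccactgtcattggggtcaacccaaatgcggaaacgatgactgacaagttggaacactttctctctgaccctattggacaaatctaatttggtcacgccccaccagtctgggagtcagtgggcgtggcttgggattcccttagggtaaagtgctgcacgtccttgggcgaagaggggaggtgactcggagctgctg
Cox7a2: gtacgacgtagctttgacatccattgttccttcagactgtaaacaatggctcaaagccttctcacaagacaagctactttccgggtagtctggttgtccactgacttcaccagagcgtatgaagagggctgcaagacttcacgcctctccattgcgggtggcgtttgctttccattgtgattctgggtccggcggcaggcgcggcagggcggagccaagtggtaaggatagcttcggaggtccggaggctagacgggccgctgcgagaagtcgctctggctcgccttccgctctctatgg
Uqcr11: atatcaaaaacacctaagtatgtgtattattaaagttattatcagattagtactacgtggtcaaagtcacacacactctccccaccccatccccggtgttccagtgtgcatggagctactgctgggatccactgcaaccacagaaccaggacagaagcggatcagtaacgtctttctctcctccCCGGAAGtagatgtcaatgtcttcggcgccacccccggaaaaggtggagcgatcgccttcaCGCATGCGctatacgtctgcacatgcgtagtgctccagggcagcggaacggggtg
Atp5k: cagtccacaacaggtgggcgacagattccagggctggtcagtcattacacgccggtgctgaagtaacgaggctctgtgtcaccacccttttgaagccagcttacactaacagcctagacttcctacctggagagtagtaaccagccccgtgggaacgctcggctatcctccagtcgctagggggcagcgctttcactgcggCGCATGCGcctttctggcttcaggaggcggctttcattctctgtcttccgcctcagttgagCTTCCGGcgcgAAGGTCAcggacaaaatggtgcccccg
The motifs were GCATGCG for NRF1, CCGGAAG for ETS factors such as GABP, AAGGTCA for oestrogen-related receptors, AAGATGG for YY1, CAGCTG for the E-box of muscle regulators and CTATTTA for MEF2. In Uqcr11 the NRF1 letters occur on both strands in 1 overlapping run at -5 and -4, and the ETS letters at -66. In Atp5k the NRF1 letters overlap in the same way at -49 and -48, the ETS letters lie at 13 and the oestrogen-related receptor letters at 24, positions counting from the start. The windows of Cox7a1 and Cox7a2 hold none of the 6. Over the 34 members, 23.5% held the NRF1 letters, 35.3% the ETS letters and 14.7% the oestrogen-related receptor letters, beside 4.01%, 9.93% and 5.38% of all 27025 genes with such a window. The YY1 letters were in 8.82% of members and 7.28% of all genes, the E-box in 5.88% and 18.3%, and the MEF2 letters in 0% and 3.36%. A match is a description of the letters, not of binding.

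Between 6 and 8 weeks some members rose and others fell in all 3 treatments. In Con and NCAC mice the more frequent direction depended on the setting. In CAC mice falls were more frequent both in the TPM as deposited and by the median of ratios. In Con mice 20 members were higher at 8 than at 6 weeks and 6 lower (background 47.5% higher and 5.43% lower). After rescaling by the median of ratios 6 were higher and 22 lower, beside 3953 and 3496 of all 13529 genes. Without the mitochondrial genome 13 were higher and 17 lower, beside 4578 and 1939 of 13516 genes. With the trend on transcript length removed 5 were higher and 23 lower, beside 3639 and 3382 of 13060 genes. That setting also takes out the overall level of each library, and the median of all genes in Con mice was then -0.02. In the TPM as deposited the median of all genes moved by 0.29 in Con, by 0.15 in NCAC and by 0.18 in CAC mice. In NCAC mice 19 were higher and 11 lower (background 37.1% and 14.4%). With the length trend removed 6 were higher and 22 lower there, beside 3771 and 3969 of 13060 genes. In CAC mice 8 were higher and 18 lower (background 37% and 10.2%). By the median of ratios 3 were higher and 22 lower there, beside 3507 and 3344 of 13529 genes. The 8 that rose in CAC mice were all among the 20 of Con mice, and the 6 that fell in Con mice all fell in CAC and NCAC mice too. Without Con replicate 2 of week 8 the falls in Con mice numbered 3, and without NCAC replicate 1 or 4 of week 8 those in NCAC mice numbered 7. Without CAC replicate 1 or 4 of week 6 or CAC replicate 6 of week 8 the rises in CAC mice numbered 5.

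Cox6a1, Atp5e, Cox8a and Cox7a2 had the 4 largest rises in Con mice. Cox6a1 averaged 235 ± 70.6 TPM at 8 weeks and 70.9 ± 6.36 TPM at 6 weeks in Con mice (SD, n = 5 each), a log2 fold change of 1.67 ± 0.23 (adjusted p = 1.57e-06). Atp5e had 1.55 ± 0.24 (adjusted p = 5.78e-06), Cox8a 1.31 ± 0.21 (adjusted p = 1.14e-05) and Cox7a2 0.94 ± 0.16 (adjusted p = 2.09e-05) in Con mice. In CAC mice the same 4 genes had 1.31 ± 0.22, 1.06 ± 0.22, 1.03 ± 0.20 and 0.60 ± 0.15. The 6 falls in Con mice were those of Atp5a1, Atp5b, Sdha, Sdhc, Uqcrc1 and Uqcrc2. Atp5a1 averaged 1235 ± 206 TPM at 8 weeks and 1861 ± 34.2 TPM at 6 weeks in Con mice, a log2 fold change of -0.61 ± 0.18 (adjusted p = 0.00585). Sdha had -0.58 ± 0.19 (adjusted p = 0.011), Atp5b -0.53 ± 0.16 (adjusted p = 0.00705), Uqcrc1 -0.51 ± 0.20 (adjusted p = 0.032) and Uqcrc2 -0.48 ± 0.16 (adjusted p = 0.0129) in Con mice. Cox7a1 rose in Con mice (0.65 ± 0.24, adjusted p = 0.0218), or had -0.06 there with the length trend removed. Its value in CAC mice was 0.03 ± 0.22 and did not pass. The direct test of the change in the CAC difference of Cox7a1 from 6 to 8 weeks (-0.62) did not pass either. The ratio of Cox6a2 to Cox6a1 was 13.5 at 8 weeks and 45.9 at 6 weeks in Con mice, that of Cox8b to Cox8a 8.63 and 13.9, and that of Cox4i2 to Cox4i1 lower by 0.60 on the log2 scale (exact permutation p = 0.00794 each, the smallest possible, adjusted p = 0.0397).

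The direction went with transcript length. Of the 27 members with a transcript under 1000 bases 22 had a value above 0 in Con mice, with a median of 0.53. The median of all 1179 genes under 1000 bases was 0.56. Of the 17 longer members 14 had a value below 0, with a median of -0.26, beside 0.28 over all longer genes. Across 44 members the correlation of the log2 fold change with log transcript length was -0.71 in Con, -0.71 in NCAC and -0.67 in CAC mice, beside -0.18, -0.22 and -0.20 across the 13060 genes with a length. These points are genes of the same libraries and not independent replicates. For CAC against Con the same correlation was -0.02 at 6 weeks and 0.27 at 8 weeks, and at 8 weeks it was 0.50 for CAC against NCAC and -0.66 for NCAC against Con. With the length trend removed 6 of the 22 falls against NCAC at 8 weeks lost their call, namely Atp5h, Atp5j, Cox5a, Cox5b, Cox8b and Uqcrb. In the same comparison of Con mice, 8 of 10 adipocyte, 10 of 10 macrophage and 9 of 10 fibro-adipogenic progenitor markers were higher at 8 weeks and 0 lower, where 47.5% of all genes were higher. Their summed levels were 3045 to 17345, 1084 to 2116 and 3114 to 6924 TPM at 8 weeks, against 1642 to 1836, 120 to 148 and 731 to 961 TPM at 6 weeks. Slow-fibre markers were lower at 8 weeks in 3 of 10 in Con, 8 of 10 in NCAC and 10 of 10 in CAC mice (medians -0.38, -0.77 and -0.98), and markers of either fibre type in 4, 9 and 9 of 10, with 0 higher. Of the 13 genes of the mitochondrial genome 9 were lower in Con, 4 in NCAC and 3 in CAC mice. The part of these cells and genes in the shift was not tested.

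**Figure D4:**
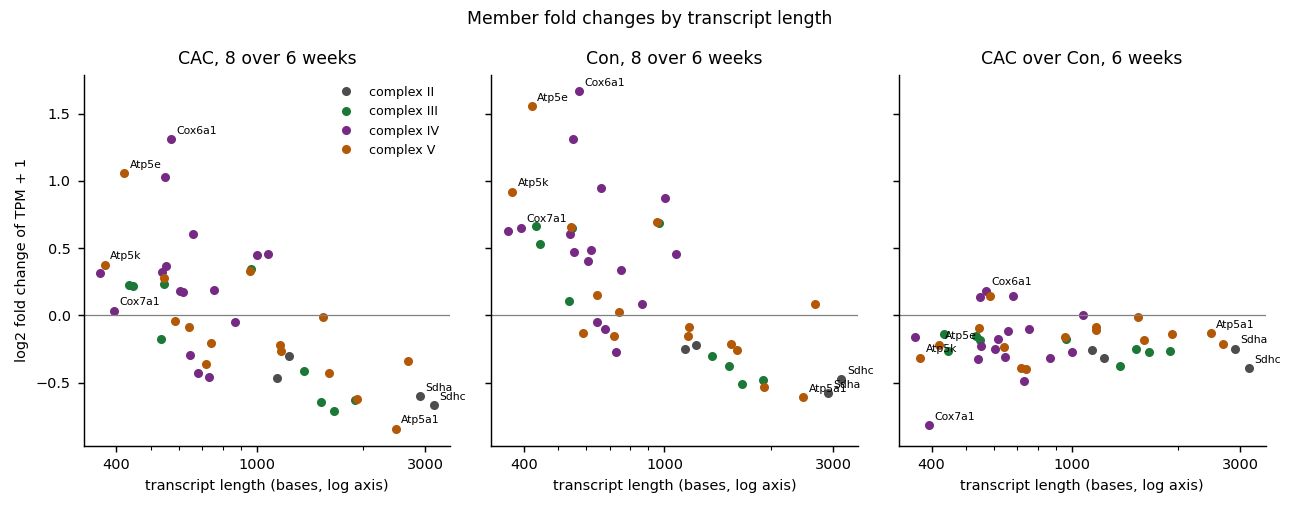
Log2 fold change of TPM + 1 (y axis) against transcript length in bases (x axis, log scale) for 44 members, CAC at 8 over 6 weeks (left), Con at 8 over 6 weeks (middle) and CAC over Con at 6 weeks (right); each point is a gene coloured by complex. Points slope downward in the first 2 panels, with correlations of -0.67 and -0.71, and not in the third, with -0.02.

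**Figure D5:**
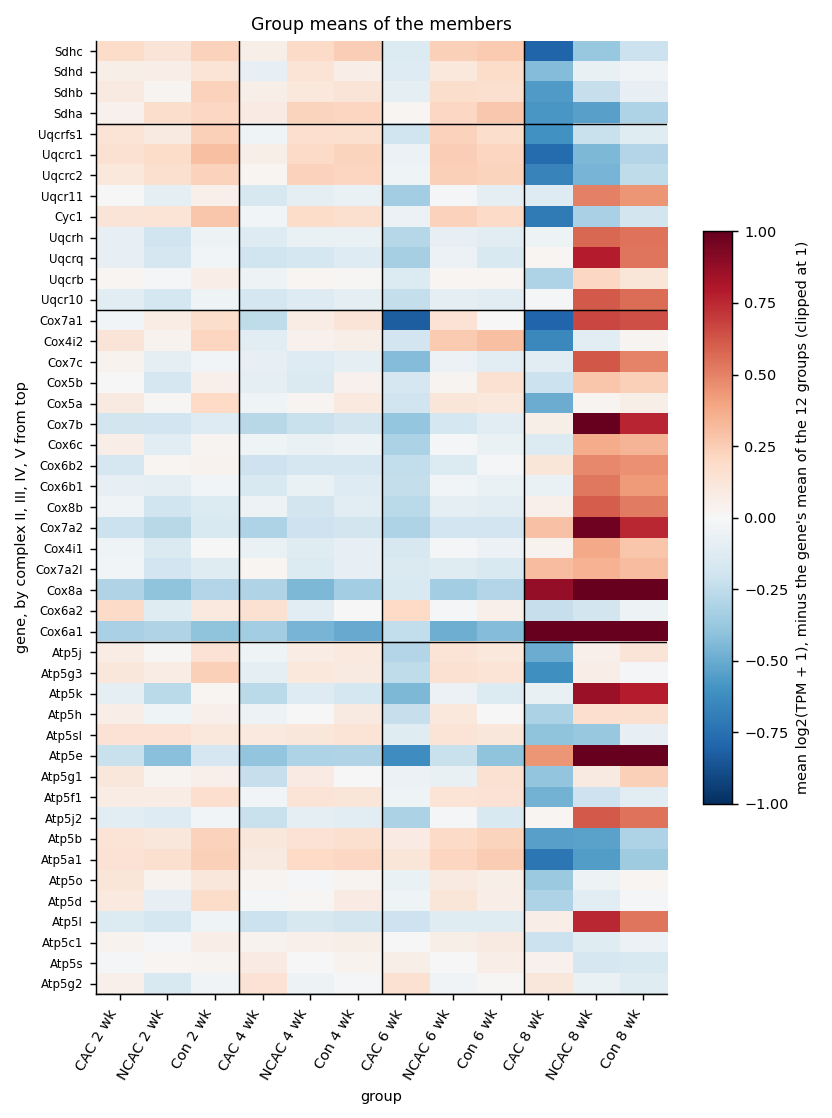
Group means of log2(TPM + 1) minus the mean of the gene over the 12 groups (colour, red above and blue below 0, clipped at 1) for the 46 tested members (rows, complexes II to V from the top) in CAC, NCAC and Con mice at 2, 4, 6 and 8 weeks (columns). The CAC column of week 6 is blue for most members. All 3 columns of week 8 are red for the short members Cox6a1, Cox8a and Atp5e and blue for the long members Atp5a1 and Sdha. Other short members are blue in the CAC column of week 8, such as Cox7a1 at -0.79 and Atp5g3 at -0.61.

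Related genes were counted in the same fits of CAC against Con, in which 3.87% of all genes were lower and 23.5% higher at 6 weeks, and 4.26% lower and 6.31% higher at 8 weeks. Of 38 nuclear complex I subunit genes 10 were lower and 1 higher in CAC than in Con muscle at 6 weeks, and 17 lower and 0 higher at 8 weeks, with Ndufb8 at -0.41 and -0.85. Of the 13 protein genes of the mitochondrial genome 7 were lower and 0 higher at 6 weeks, with mt-Co2 and mt-Co3, which code for core subunits of complex IV, at -0.35 and -0.34 and mt-Cytb, the cytochrome b of complex III, at -0.35. At 8 weeks 0 of the 13 were lower and 1, mt-Atp8, was higher. The 3 mitochondrial subunits of complex IV summed to 13.4% ± 1.2 of TPM in CAC and 15.1% ± 2.7 in Con libraries at 8 weeks (SD, n = 7 and 5). Of 36 tested assembly factors for complexes II to V, 5 were lower at 6 weeks (Sdhaf4, Cox14, Uqcc1, Uqcc2 and Tmem70) and 6 at 8 weeks, with Sdhaf4, which acts on Sdha, at -0.43 and -0.87, and 0 were higher in either week. Of 17 regulators of mitochondrial genes 3 were higher at 6 weeks, namely Pprc1 (0.50), Yy1 (0.37) and Nrf1 (0.25), and 2 were lower, namely Perm1 (-0.54) and Tfam (-0.22). Yy1 was higher again at 8 weeks (0.60) and 0 regulators were lower. The 3 higher of 17 at 6 weeks and 1 of 17 at 8 weeks are no larger a share than that of all genes. The electron carrier Cycs had -0.24 at 6 weeks and did not pass (adjusted p = 0.211).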

How the data were processed

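Soleus RNA was sequenced as 62 stranded mRNA libraries (TruSeq, NovaSeq 6000, per the labels' protocols). The authors deposited 1 table of TPM values per gene and library, and the submitters' processing notes name mm10 as the build. No aligner or quantifier is given in the sources used here. Because TPM fixes each library's total, a change in abundant genes shifts all others, and near-identical copies may split the reads of small subunits.

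From these values log2(TPM + 1) was tested with limma 3.58.1 (R 4.3.3, trended variance, two-sided) for the 13529 genes with at least 1 TPM in at least 5 libraries, using the libraries of the weeks compared. Adjusted p values are Benjamini-Hochberg over all genes tested, a call is an adjusted p under 0.05, and the pseudocount understates the fold changes of low genes. Ratios of 2 forms (TPM + 1) were tested by exact permutation of the libraries. The fits were tested on simulated data. Members and gene lists were chosen with earlier results of these data known. Genes with values for each library were the complex II genes, the 4 pairs of forms of complex IV subunits and, in each complex, the 3 members with the smallest p in CAC against Con at 6 weeks; all members may be named, and other genes come from the lists. Nothing says whether mice of a group were housed or processed apart, so p values measure the spread between these samples. Alternatives were another pseudocount, no filter, median-of-ratios rescaling, TPM without the mitochondrial genome, all libraries in 1 fit, each library left out, a replicate block, and, added after seeing the data, removal of a length trend and of libraries that stood apart. The length trend was a smooth curve fitted to each library, so its removal also took out the overall level of the library. Transcript lengths were taken from the reference annotation for 44 of the 46 tested members, and promoter sequences from RefSeq on GRCm38.p6 for 34 of 48.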

Additional observations from a re-analysis of the deposited data

Results flagged for a closer look

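In groups of 5 or 7 libraries, 276 sets of values (19 members and 4 summed complexes in 12 groups) were screened for 1 library far from the rest, which chance alone gives in about 1 of 20 groups. This gave 14 such sets, about the number that chance gives, so the values below are listed as descriptions. In CAC mice at 8 weeks replicate 6, the library with 2040 TPM of Myh4, was low for Sdha at 139 TPM and high for Cox7a2 at 1320 TPM. NCAC replicate 2 of week 8 was apart for Cox7a2 at 801 TPM and for Atp5k at 1093 TPM. NCAC replicate 5 of week 4 was low for Sdha at 430 TPM, where the other 4 libraries had 485 to 499 TPM, and apart for Cox8b at 2112 TPM. Con replicate 1 of week 6 was low for Cox8a at 156 TPM and for Uqcr11 at 665 TPM. Single libraries of other groups stood apart for Cox7a2 (CAC replicate 2 of week 2 at 641 TPM and Con replicate 4 of week 2 at 653 TPM), Cox8a (NCAC replicate 3 of week 2 at 107 TPM), Cox4i2 (Con replicate 1 of week 2 at 6.10 TPM), Uqcrc2 (Con replicate 5 of week 2 at 619 TPM) and Uqcr11 (Con replicate 1 of week 4 at 691 TPM). Between weeks, the CAC difference of Sdhc changed by -0.34 from 2 to 6 weeks (limma, adjusted p = 0.0491), and this call was lost in 16 of 20 fits with 1 library left out.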

How the results depend on the processing

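Under settings other than leaving out 1 library, 1203 single values kept direction and call, 155 lost their call, 19 turned sign and 13 moved. Counts of members lower in CAC than in Con at 6 weeks were 28 by median-of-ratios, 29 without the mitochondrial genome, 10 with all 62 libraries in 1 fit and 4 without CAC replicates 1 and 4, and against NCAC 33, 31 and 8 for the first, second and last of these. Over all genes the counts lower, in the same order, were 1538, 1108, 328 and 194 against Con and 1859, 1273 and 324 against NCAC. At 8 weeks against Con all libraries in 1 fit gave 35 lower and 2 higher (2021 and 2185 of all genes). Removal of the length trend gave 9 lower (937 of all genes). Against NCAC all libraries in 1 fit gave 1 higher (4793 of all genes). For 8 against 6 weeks, Con mice had 6, 13 and 5 higher and 22, 17 and 23 lower by median-of-ratios, without the mitochondrial genome and without the length trend, and 10 lower with all libraries. Over all genes these counts were 3953, 4578 and 3639 higher, 3496, 1939 and 3382 lower, and 1045 lower with all libraries. NCAC mice had 6 higher and 22 lower without the length trend (3771 and 3969 of all genes). CAC mice had 3 higher by median-of-ratios or without the length trend, 16 with all libraries, and 5 without the mitochondrial genome, without high-Myh4 libraries or without CAC replicates 1 and 4. Over all genes 3507, 3328, 5758, 4135, 5204 and 5219 were higher in CAC mice under these settings, in that order. For CAC against NCAC at 4 weeks 0 were higher under 6 settings and 0 lower under 3, with 3 lower without the length trend, and the Sdhc change between 2 and 6 weeks gave 0 calls under 7 settings. Without the length trend 8-against-6-week values turned sign: -0.24 (Con) and -0.13 (NCAC) for Cox4i1, -0.13 and -0.040 for Cox6b1, -0.17 and -0.013 for Cox6b2, -0.21 and -0.22 for Cox6c, -0.098 and -0.050 for Cox8b, -0.15 and -0.17 for Uqcr11, -0.056, -0.025, -0.037 and -0.023 in Con for Cox7a1, Cox7a2l, Cox7c and Uqcr10, and -0.023 and -0.13 in CAC for Atp5j2 and Cox7c; by median-of-ratios Cox4i1 in Con was -0.032. Removing the length trend also removes the overall level of each library. The cause of the sign changes was not tested. With 1 library left out, members lower numbered 8 to 20 and 4 to 20 against Con at 6 and 8 weeks (higher 0 to 1 at 6), 15 to 23 against NCAC in both weeks (higher 0 to 2 and 0 to 1), 0 to 3 against Con at 4 weeks, 0 to 7 (higher 0 to 3) against NCAC at 4 weeks and 0 to 5 for 6 minus 2 weeks. For 8 against 6 weeks they numbered 3 to 8 in Con (higher 17 to 20), 7 to 14 in NCAC (higher 19 to 21) and 13 to 20 in CAC (higher 5 to 12). Counts over all genes with 1 library left out are not given here. Ratios with no call turned sign as well, Cox6a2 over Cox6a1 between -0.12 and 0.13, -0.044 and 0.13, -0.095 and 0.0032, and -0.17 and 0.16 at 2, 4, 6 and 8 weeks, Cox4i2 over Cox4i1 between -0.090 and 0.062 at 2 weeks, and Cox8b over Cox8a between -0.090 and 0.11 at 4 weeks. Replicate numbers did not pair the samples (60 pairs, correlation -0.67 to 0.48, 15 over 0.1). With them as a replicate block 17 and 14 members were lower against Con at 6 and 8 weeks (518 and 196 of all 13529 genes). Against NCAC 19 and 22 were lower (648 and 228 of all genes), and 5 were higher in CAC at 8 against 6 weeks (5092 of all genes). TPM keeps no depth, so counting error could not be given.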
